A study of Mus musculus with 6 samples.

Results

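The AP-1 subunits Fos, Fosb, Fosl2, Jun, Junb and Jund, the Krüppel-like factors Klf4 and Klf6, and the immediate early gene Ier2 were examined in splenic regulatory T cells (Treg) with and without inositol polyphosphate multikinase (IPMK). The 9 genes were taken by symbol from the 23282 entries of each deposited count file, and all 9 had 1 entry and passed the filter on low counts, which kept 10475 genes. These cells, a CD4 T cell lineage that dampens immunity, were FACS-sorted and left unstimulated, and came from spleens of the C57BL/6 strain. There were 3 wild type libraries and 3 libraries labelled IPMK cKO (conditional knockout of Ipmk), each called a biological replicate. The sources used here do not state the Cre driver, the deleted part of Ipmk or the age and sex of the mice. They do not tie each replicate to an animal of its own either, and the p-values below measure only the spread between these libraries, which may be technical. Libraries were made with a 3′ tag kit, in which reads come from the ends of polyadenylated transcripts, and held 7464546 to 8980395 counts.

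AP-1 is a dimer of basic leucine zipper proteins. JUN proteins can pair with each other or with FOS proteins, while FOS proteins need a JUN partner to bind DNA. In T cells, antigen receptor and stress kinases induce Fos, Fosb, Jun, Junb and Ier2 within minutes, and AP-1 binds together with the calcium-regulated factor NFAT at many genes. Klf4 and Klf6 are zinc finger factors of the Krüppel-like family. Both are induced by stress and by tissue handling, and Klf4 is linked to quiescence in T cells.

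Ipmk, the targeted gene, was counted 129, 77 and 99 times in wild type replicates 1 to 3, against 3, 21 and 0 times in those of IPMK cKO, so the groups did not overlap. The 45S ribosomal RNA precursor Rn45s took 16.7% to 31.7% of the counts in wild type and 19.9% to 32.1% in IPMK cKO. Across the 10475 genes tested, IPMK cKO replicate 1 had the lowest mean Pearson correlation with the other 5 libraries, at 0.694. The next lowest was wild type replicate 1 at 0.732, and the highest was 0.804. Estimates with and without IPMK cKO replicate 1 are given for the members and lists whose values moved with it. Of the Treg and CD4 T cell markers, 9 of 10 had counts in these libraries, and Trac had no entry. Foxp3 was 10.3, 80.6 and 29.0 in the wild type libraries, in CPM (counts scaled to a common library size), and 85.1, 72.0 and 82.3 in the IPMK cKO libraries. Cd4 lay between 296 and 451 CPM in the 6 libraries.

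None of the 9 genes was called between the genotypes. By edgeR's quasi-likelihood test, 0 of the 10475 genes were called higher and 0 lower in IPMK cKO at an adjusted p of 0.05 (background 0% in each direction), and each of the 9 had an edgeR adjusted p of 0.9999. At an unadjusted edgeR p under 0.05 the counts over all genes were 143 higher (1.37%) and 125 lower (1.19%), with 0 and 1 of the 9 among them. DESeq2 called 0 genes higher and 3 lower (0.0286%), and 0 of the 9. Of the 9 estimates 7 lay above 0 and 2 below, with a median log2 fold change (IPMK cKO over wild type) of 0.09, against 0.03 over all genes tested. Junb was the 1 gene of the 9 whose groups did not overlap. Among all genes tested the groups stood fully apart with the IPMK cKO side lower for 5.66% and higher for 4.74%. Since these are bulk libraries, fewer cells with a transcript and less of it per cell cannot be told apart.

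**Figure D1:**
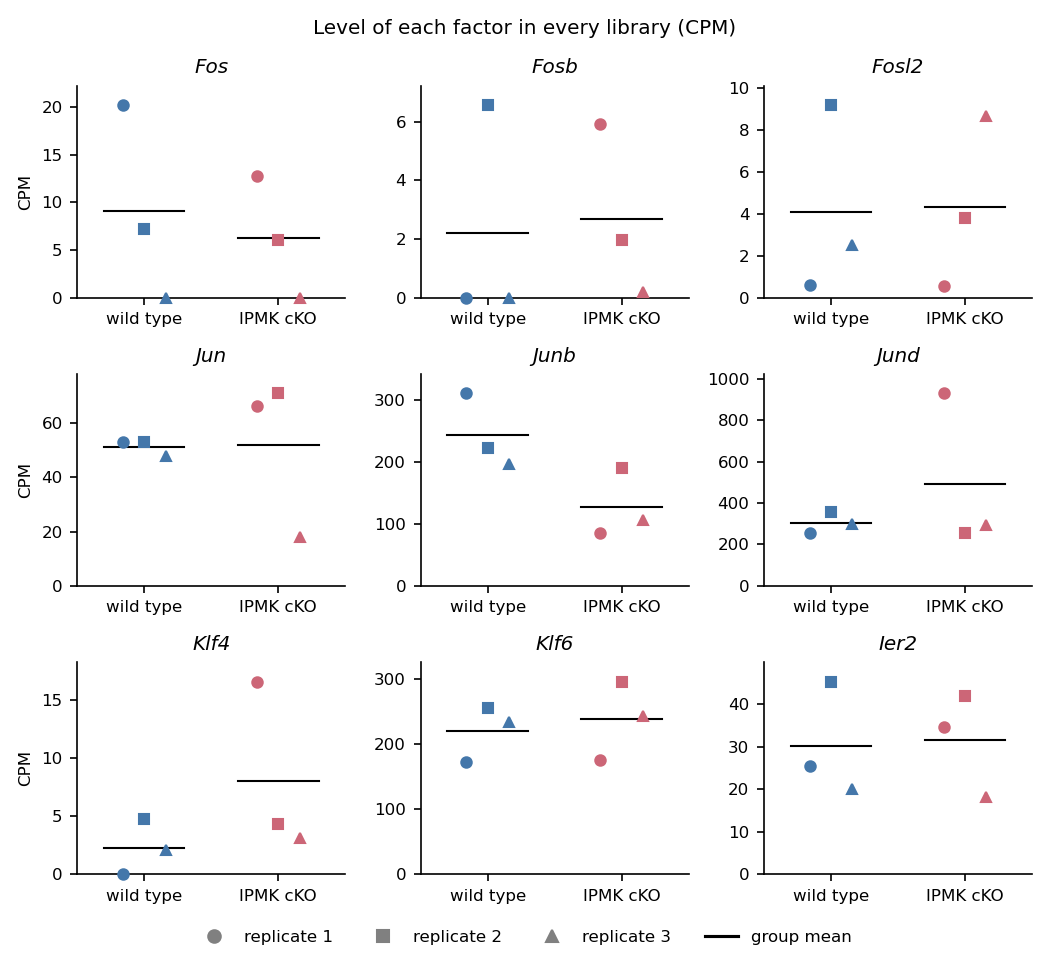
Level of each of the 9 genes in CPM (vertical axes, each from 0) in the 3 wild type (blue) and 3 IPMK cKO libraries (red); circles, squares and triangles are replicates 1 to 3 and lines are group means. Junb is the gene whose IPMK cKO libraries all lie under the wild type ones, and Jund has 1 high library at 930 CPM.

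Stretches from the proximal promoters of 4 members are shown, to set the gene whose groups did not overlap (Junb) beside the scarce Fos and beside Jun and Klf6, which share a motif. They are from RefSeq on GRCm38.p6, read 5′ to 3′ on the strand of the gene, and capitals mark matches to the motifs named below, searched on both strands (ATTGG is CCAAT on the other strand). TGACG is the core of the cyclic AMP response element, and TGACATCA is a known AP-1 variant of the Jun promoter.
Fos, chr12:85473810-85473889, plus strand: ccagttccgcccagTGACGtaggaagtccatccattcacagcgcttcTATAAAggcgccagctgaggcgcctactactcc
Jun, chr4:95052253-95052332, minus strand: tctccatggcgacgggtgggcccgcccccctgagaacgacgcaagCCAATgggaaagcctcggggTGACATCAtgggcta
Junb, chr8:84978749-84978878, minus strand: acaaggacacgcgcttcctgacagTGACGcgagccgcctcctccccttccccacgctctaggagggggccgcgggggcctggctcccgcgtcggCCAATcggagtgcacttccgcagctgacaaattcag
Klf6, chr13:5861364-5861443, plus strand: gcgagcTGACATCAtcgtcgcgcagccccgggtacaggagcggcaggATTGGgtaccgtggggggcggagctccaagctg

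A window was given for 8 of the 9 genes and is searched here over the 250 bases before the start. TGACG was in 4 of the 8 (Fos, Fosb, Junb and Klf4) and in 17.8% of all 32851 windows. The full cyclic AMP response element, TGACGTCA, was in 0 of the 8 and in 1.55% of all windows. TGACATCA was in Jun and Klf6, and in 2.93% of all windows. CCAAT was in Jun, Junb and Klf6 (33.8% of all windows) and TATAAA in Fos (12.4%). TGANTCA, with any base at N, takes in the AP-1 site and looser matches, and was in 0 of the 8 (6.75%). Jun and Klf6, which share TGACATCA, did not have like levels across libraries (Pearson r −0.12 over 6 libraries). The RefSeq window of Jund lies upstream of the start annotated in GENCODE M21, so its stretch is not shown. A match describes letters in a window and is no measured site.

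AU-rich elements, the ATTTA repeats that mark short-lived messages, were counted in the annotated 3′ ends after the coding sequence. At least 1 ATTTA was present in 8 of the 9 genes, Ier2 being the exception, and in 68.2% of the 19861 genes with at least 100 such bases. Per kb, Fos had 4.89 (above 92.2% of genes), Junb 4.10 (above 87.9%) and Jun 3.24 (above 80.5%), against 2.25 for Klf6, 1.87 for Jund, 1.72 for Fosl2 and a median of 1.34 over genes. Klf4 with 1.02 (above 43.2%) and Fosb with 0.43 (above 33.2%) lay below that median. Fos, the gene with the densest motif, and Junb are shown beside Jund, as 24 bases around a motif with ATTTA in capitals.
Fos: tgttttcaATTTATTTAttaagat
Junb: atatttgtgtATTTAacagggagg
Jund: attccgccctATTTAtgtttctac

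The JUN genes, which are short and of a single exon, supplied most of the AP-1 transcripts. Junb encodes a JUN protein that is induced by T cell activation and takes part in effector Treg differentiation. It lies at chr8:84974484-84978718 on the minus strand of mm10, where the span of the gene overlaps that of Prdx2, an antioxidant enzyme gene on the opposite strand. The Junb transcript used here is 1 exon of 1809 bases, shorter than that span, and its own overlap with Prdx2 was not examined. Prdx2 had 113, 28.8 and 61.3 CPM in the wild type and 118, 47.2 and 56.5 CPM in the IPMK cKO libraries, and its part in the Junb counts was not tested. Junb had 2575, 1623 and 1889 counts in the wild type replicates (310, 222 and 196 CPM) and 608, 1457 and 1049 counts in the IPMK cKO replicates (85.6, 190 and 106 CPM). Every IPMK cKO library was below every wild type library, but the gap between the nearest libraries of the 2 groups, wild type replicate 3 and IPMK cKO replicate 2, was only from 196 to 190 CPM. The means were 243 ± 59.5 and 127 ± 55.5 CPM (SD, n = 3 each), a 1.90-fold lower level in IPMK cKO. The log2 fold change was −0.93 (SE 0.36, 95% interval −1.72 to −0.14; edgeR adjusted p = 0.9999, unadjusted p = 0.0256). By unadjusted p Junb ranked at place 110 of the 10475 genes, and 1.19% of all genes were lower with an unadjusted p under 0.05. The estimate was −0.72 without IPMK cKO replicate 1, −0.71 without wild type replicate 1 and −0.50 without both of these libraries.

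Jund encodes the JUN protein that is present in resting cells with little induction. It lies at chr8:70698949-70700616 on the plus strand and is overlapped by the antisense gene Gm11175, which had no entry in the files. Since the counting is not stated to use strand, reads of the pair cannot be separated. Jund had 254, 357 and 301 CPM in the wild type group and 930, 256 and 294 CPM in the IPMK cKO group. IPMK cKO replicate 1 was far above all others (6607 counts against 1961 to 2894), and the remaining IPMK cKO libraries lay within or near the wild type range. The log2 fold change of 0.70 (SE 0.45, edgeR adjusted p = 0.9999) became −0.15 (SE 0.24) without that library. Its biological coefficient of variation, the spread between replicates beyond counting error, was 0.407, above that of 95.2% of the 500 genes nearest to it in level.

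Jun, the founding member of the family, lies at chr4:95049034-95052222 on the minus strand and is overlapped by the antisense gene Junos, which had no entry either. It was the steadiest gene of the 9 within wild type, at 52.9, 53.0 and 47.7 CPM, and spread widely in IPMK cKO, at 66.1, 70.9 and 18.2 CPM. Thus 2 IPMK cKO libraries were above and 1 below the whole wild type range. The group means were 51.2 ± 3.03 and 51.7 ± 29.2 CPM (SD, n = 3 each), and the log2 fold change of 0.01 (SE 0.50) had a 95% interval of −1.09 to 1.12. An interval this wide covers a 2-fold change in either direction.

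The FOS genes were scarce in these resting cells. Fos (chr12:85473890-85477273, plus strand) encodes the rapidly induced partner of JUN. It was counted 168, 53 and 0 times in the wild type libraries against 91, 46 and 0 in the IPMK cKO libraries, or 20.2, 7.24 and 0 CPM and 12.8, 6.01 and 0 CPM. In both genotypes replicate 1 was the highest and replicate 3 had no count. By its Poisson 95% interval, a count of 0 allows up to 0.384 CPM in wild type replicate 3 and 0.374 CPM in IPMK cKO replicate 3. These limits and the intervals cover counting error alone, and the labels mention no molecular identifiers that would mark PCR copies. The Poisson 95% intervals of the counts in wild type replicates 1 and 2 were 17.3 to 23.5 and 5.43 to 9.47 CPM, so libraries of 1 genotype differed by more than counting error. The log2 fold change was −0.55 (SE 1.96), and it was 0.79 without wild type replicate 1 and −1.62 without IPMK cKO replicate 1.

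Fosb (chr7:19302696-19310051, minus strand), a FOS protein with a short splice form known from long-lasting stimulation, had 0, 48 and 0 counts in the wild type group against 42, 15 and 2 in the IPMK cKO group. In CPM these were 0, 6.56 and 0 against 5.91, 1.96 and 0.20. Only wild type replicate 2 and IPMK cKO replicates 1 and 2 exceeded 3 counts. Fosl2 (chr5:32135801-32157842, plus strand), a later-induced FOS relative also called Fra-2, had 5, 67 and 24 counts in the wild type group against 4, 29 and 85 in the IPMK cKO group, or 0.60, 9.16 and 2.496 CPM against 0.56, 3.79 and 8.63 CPM. It was lowest in replicate 1 of both genotypes, where Fos was highest. Their log2 fold changes were 0.30 (SE 2.47) and 0.09 (SE 1.77), and the 95% interval of Fosb ran from −5.14 to 5.74. The biological coefficients of variation were 1.59 for Fos, 1.87 for Fosb and 1.33 for Fosl2, so the spread between replicates was wide beyond counting error. Genes of like level were also wide, with medians of 1.19, 1.75 and 1.53 over the 500 genes nearest to each. The 3 values lay above those of 94%, 74.4% and 17% of these genes.

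The makeup of the AP-1 pool could be set out by library, because a 3′ tag kit gives a number of tags that does not grow with transcript length. The JUN genes took 97.6% ± 1.69 of the counts of the 6 AP-1 genes in the wild type group against 98.0% ± 0.240 in the IPMK cKO group (SD, n = 3 each). Their sum was 617, 632 and 545 CPM in the wild type group and 1081, 518 and 418 CPM in the IPMK cKO group, and that of the FOS genes was 20.8, 23.0 and 2.496 CPM against 19.3, 11.8 and 8.83 CPM. Within the JUN counts, Junb took 50.2%, 35.1% and 36.0% in the wild type group against 7.91%, 36.8% and 25.4% in the IPMK cKO group. The groups overlapped in that share through IPMK cKO replicate 2. The ratio of Junb to Jund counts was 1.22, 0.621 and 0.653 in the wild type group against 0.0920, 0.743 and 0.362 in the IPMK cKO group, with the same overlap. These shares were calculated from 3961 to 7685 JUN counts per library.

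**Figure D2:**
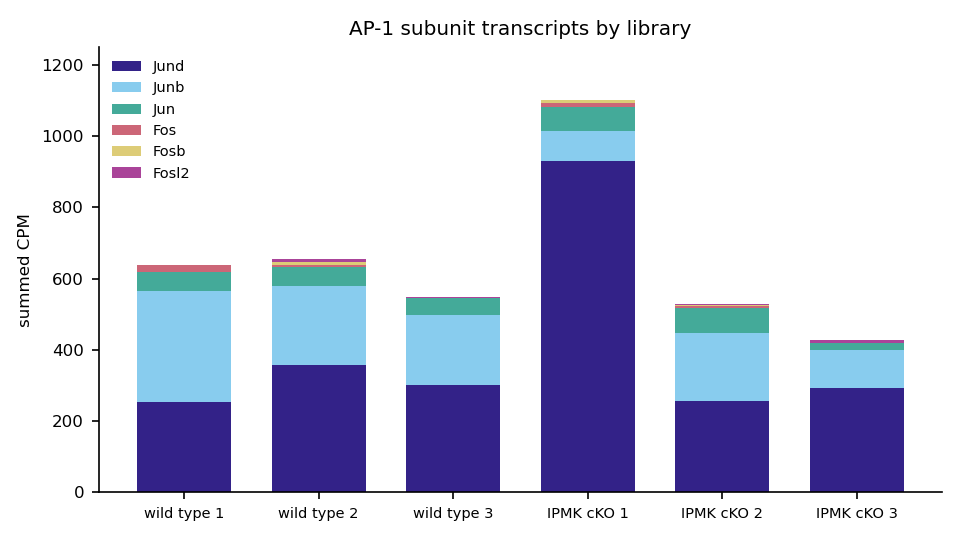
Stacked levels of the 6 AP-1 genes (summed CPM, vertical axis from 0) in each of the 6 libraries. Jund and Junb fill most of every bar, the FOS genes are a thin layer of 2.496 to 23.0 CPM, and IPMK cKO replicate 1 differs from the others through Jund at 930 CPM.

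Klf6 was the steadier of the Krüppel-like factors. It is a widely expressed zinc finger activator, at chr13:5861482-5870394 on the plus strand. It had 173, 255 and 234 CPM in the wild type group and 176, 297 and 244 CPM in the IPMK cKO group. The order of the replicates was the same in both genotypes, with replicate 1 lowest and replicate 2 highest. Its log2 fold change was 0.11 (SE 0.30), with a 95% interval of −0.55 to 0.78, the narrowest of the 9 genes. Klf4 (chr4:55527143-55532466, minus strand) had 0, 35 and 20 counts in the wild type group against 118, 33 and 31 in the IPMK cKO group, which is 0, 4.78 and 2.08 CPM against 16.6, 4.31 and 3.15 CPM. The groups overlapped, and the estimate of 1.80 (SE 1.86) was 0.70 when IPMK cKO replicate 1 was left out and 0.12 when wild type replicate 1 was left out as well.

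Ier2, a single-exon early gene that encodes a nuclear protein, lies at chr8:84661331-84662852 on the minus strand. It had 25.5, 45.4 and 19.97 CPM in the wild type group and 34.8, 41.9 and 18.2 CPM in the IPMK cKO group. In both genotypes replicate 2 was the highest and replicate 3 the lowest. The means were 30.3 ± 13.4 and 31.6 ± 12.2 CPM (SD, n = 3 each), and the log2 fold change was 0.06 (SE 0.56, 95% interval −1.16 to 1.29).

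**Figure D3:**
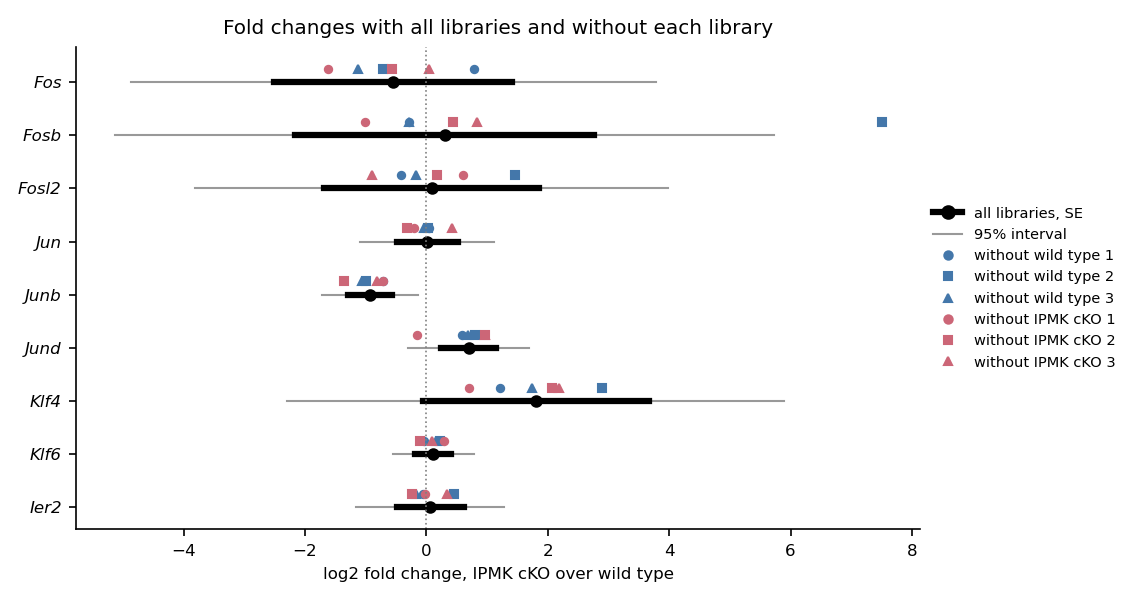
Log2 fold change (horizontal axis, IPMK cKO over wild type) of each gene with all 6 libraries (black dot, thick bar SE, thin line 95% interval) and, just above it, without each library in turn (blue, a wild type library left out; red, an IPMK cKO library left out). Junb stays below 0 at −1.36 to −0.71, Jund changes sign without IPMK cKO replicate 1, and the FOS genes and Klf4 have intervals several units wide.

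Ordered by mean level over the 6 libraries, the genes ran Jund (399 CPM), Klf6 (230), Junb (185), Jun (51.5), Ier2 (31.0), Fos (7.71), Klf4 (5.15), Fosl2 (4.21) and Fosb (2.44). The ranges of neighbours in this order overlapped in all but 1 case, the step from Junb (lowest library 85.6 CPM) to Jun (highest library 70.9 CPM). Jund stood above 97.5% of the genes tested and Fosb above 3.47%. Per kb of transcript, the mean wild type levels were 182 CPM for Jund, 134 for Junb, 52.3 for Klf6, 19.9 for Ier2, 16.1 for Jun and 4.34 for Fos, and under 1 for Klf4, Fosl2 and Fosb. Since the number of 3′ tags does not grow with length, this division only rescales the tag levels, and no order is read from it.

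Across libraries the 9 genes did not move as 1 group. Over the 6 libraries, the Pearson correlation of log2 levels was 0.85 for Fosb with Ier2, 0.83 for Fosl2 with Klf6, 0.76 for Fosb with Klf4, 0.73 for Fos with Ier2, 0.73 for Jun with Ier2, 0.71 for Fos with Jun and 0.69 for Jund with Klf4. It was −0.70 for Junb with Jund and −0.77 for Junb with Klf4. These values describe 6 libraries that share depth and composition, and those of Fos, Fosb, Fosl2 and Klf4 rest on few counts. By Spearman rank correlation, Junb had −0.49 with Jund and −0.6 with Klf4, and Fosb had 0.75 with Ier2 and 0.93 with Klf4. IPMK cKO replicate 1 held the lowest Junb and the highest Jund and Klf4, and the correlations without it were not calculated.

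The mean of the 9 centred log2 levels was −0.55, 0.85 and −0.76 in the wild type group against 0.66, 0.47 and −0.68 in IPMK cKO. Each gene has the same weight in this mean, also Fos, Fosb, Fosl2 and Klf4, which had few counts and spread widely. The mean was above 0 in the 3 libraries with the most Rn45s (31.3% to 32.1% of counts). It was below 0 in the 3 with the least (16.7% to 21.0%). Ier2 was at 34.8 CPM or more in the first 3 and at 25.5 CPM or less in the others, and Fosb at 1.96 or more and 0.20 or less. Jun and Klf4 also separated, though Jun only at 53.02 against 52.94 CPM. Junb, Fosl2, Fos, Jund and Klf6 overlapped between these sets of libraries. Each genotype had libraries on both sides. The part of Rn45s in these levels was not tested.

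**Figure D4:**
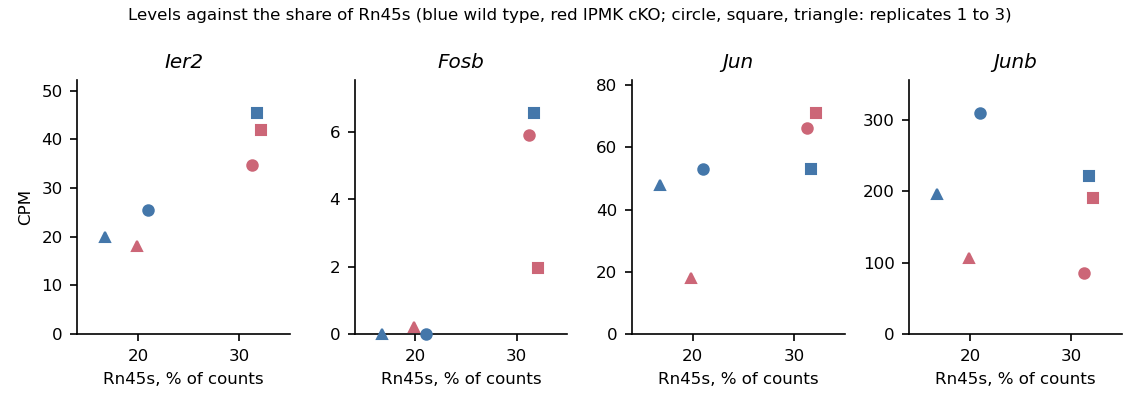
Level (CPM, vertical axes from 0) of Ier2, Fosb, Jun and Junb against the percentage of counts in Rn45s (horizontal axes) for 6 libraries. Ier2 and Fosb are higher in the 3 libraries at 31.3% to 32.1% Rn45s, and Junb shows no such split.

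The genes most like this mean, among the 5937 with at least 20 CPM, were Ovca2 (Pearson r 0.98), Lbh (0.98), Ddx5 (0.98), Ascc3 (0.97), Rapgef1 (0.97) and Arpc2 (0.97), each over 6 libraries. Rn45s itself came at place 8 (0.96). Ovca2 was 15.6, 33.5 and 14.5 CPM in the wild type group and 36.9, 28.7 and 16.1 CPM in the IPMK cKO group.

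Relatives and regulators of these factors were taken as lists. Of 20 other AP-1 and partner bZIP genes 15 were tested, 10 of them with an estimate above 0 and 5 under it (median 0.41), and 0 were called in either direction by edgeR. Without IPMK cKO replicate 1 the median was 0.18, with 9 of 16 estimates above 0, and with library size alone it was 0.20. The groups stood apart for 4 genes upward (Atf7, Atf2, Bach2 and Creb1) and 3 downward, where 4.74% and 5.66% of all genes tested did so. Maf, an effector Treg factor, was 417 ± 115 CPM in the wild type group and 214 ± 43.7 CPM in the IPMK cKO group (log2 fold change −0.96, SE 0.31), and the JUN partner Batf was 76.4 ± 20.04 and 45.8 ± 8.73 CPM (−0.74, SE 0.38), as mean ± SD of 3 libraries. The groups did not overlap for either gene. In the other direction, Atf7, a stress-responsive bZIP factor, was 46.8, 39.2 and 23.8 CPM against 75.6, 52.0 and 53.3 CPM (0.72, SE 0.42), also with no overlap, and the estimates of Atf2, Bach2 and Creb1 were 0.42, 0.41 and 0.29. Atf4, the factor of the amino acid response, stood at 757 CPM in IPMK cKO replicate 1, while the other libraries ranged from 145 to 204 CPM, a pattern like that of Jund. Its log2 fold change was 1.05 (SE 0.56) with that library and −0.19 (SE 0.25) without it. Batf3 and Atf3 had no count in any library.

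Of 15 other Krüppel-like factors 10 were tested, with 5 estimates above and 5 below 0 (median −0.01, or 0.06 without IPMK cKO replicate 1) and 0 called in either direction. This median depended on single libraries. It was 0.36 without wild type replicate 1 (8 above 0 and 2 below) and −0.40 without IPMK cKO replicate 3 (3 above and 7 below). Klf3 had 417, 428 and 469 CPM in the wild type group and 1126, 547 and 614 CPM in the IPMK cKO group, with no overlap (0.80, SE 0.31; 0.40, SE 0.20 without IPMK cKO replicate 1). Klf2, which maintains quiescence and egress from lymphoid organs, had 417, 352 and 443 CPM against 389, 479 and 697 CPM (log2 fold change 0.37, SE 0.29). Klf7 had 0.88 (SE 0.48).

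Of 34 other immediate early genes 32 were tested, with 9 estimates above 0 and 23 below (median −0.22), and 0 called in either direction by edgeR. The IPMK cKO libraries were all higher for 2 genes and all lower for 1, a share near that over all genes tested (4.74% and 5.66%). IPMK cKO replicate 1 was the lowest library for 22 of the 32, and without it 18 estimates were above 0 and 14 below (median 0.03). Gadd45b, a stress gene, was 49.5, 19.3 and 13.6 CPM in the wild type group and 2.95, 12.9 and 3.86 CPM in the IPMK cKO group (−2.06, SE 0.88). Nfkbiz, an inducible regulator of NF-kappaB, was 122, 84.5 and 80.2 CPM against 220, 128 and 148 CPM (0.79, SE 0.33). Egr2 and Sik1 had −1.23 (SE 0.69) and 1.65 (SE 1.20), and without IPMK cKO replicate 1 −0.84 (SE 0.56) and 0.65 (SE 1.56). Unlike most of these genes, Jund and Klf4 were highest in IPMK cKO replicate 1, whereas Junb was lowest there.

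Of 29 genes listed as the MAP kinase and SRF module upstream of AP-1, 28 were tested. There were 14 estimates above and 14 below 0 (median −0.07, or 0.05 without IPMK cKO replicate 1) and 0 called in either direction. The median moved most without IPMK cKO replicate 2, to −0.43, with 7 of 29 estimates above 0 and 22 below. Without IPMK cKO replicate 3 it was −0.23. With library size alone, 8 of the 28 estimates were above and 20 below 0 (median −0.28), where the median of all genes was −0.17. The SRF partner Elk3 had −0.67 (SE 0.41), and the kinase genes Map3k5 and Map2k3 had −0.79 (SE 0.50) and −0.70 (SE 0.45). Of 18 heat shock and stress genes 17 were tested, with 8 estimates above and 9 below 0 (median −0.0026) and 0 called in either direction. Without IPMK cKO replicate 1, 5 of 18 estimates were above 0 and 13 below (median −0.12), and with library size alone 5 of 17 were above and 12 below. Without wild type replicate 1, 10 were above 0 and 7 below (median 0.16). Their summed level was 3624 to 3854 CPM in the wild type group against 3507 to 7034 CPM in IPMK cKO, the highest value being that of replicate 1, where Hsp90ab1 had 4967 CPM. The estimate of Hsp90ab1 was 0.60 (SE 0.36), or 0.05 (SE 0.19) without that library. Hspb1 had 3.48 (SE 1.69) and Dnajb1 −0.65 (SE 0.38).

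**Figure D5:**
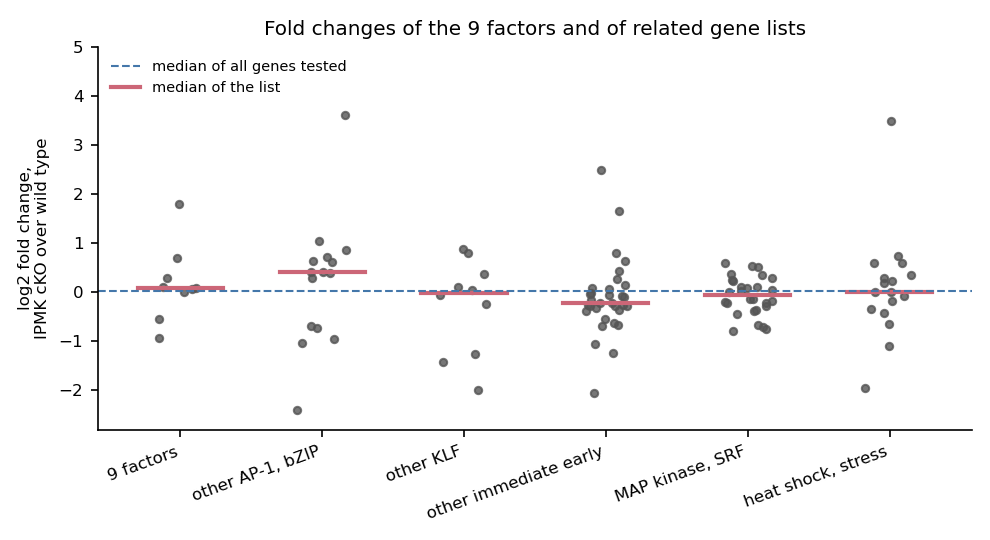
Log2 fold change (vertical axis, IPMK cKO over wild type) of each tested gene (dots) in the 9 factors and in 5 related lists, with the median of each list (red) and of all genes tested (dashed blue, 0.03). The list medians lie between −0.22 and 0.41, and single genes scatter on both sides of 0.

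Markers of other cell types were low. Summed levels ranged over 11.5 to 41.0 CPM for 10 B cell genes, 17.3 to 81.6 CPM for 13 monocyte and macrophage genes, 0 to 19.99 CPM for 10 neutrophil genes, 31.8 to 76.4 CPM for 9 CD8 T and NK cell genes and 0.12 to 59.6 CPM for 10 erythroid and platelet genes. Of these markers Cd14, Adgre1 and Cd8a had no count in any library, and Ly6g had no entry. The 2 most abundant markers were Cd79b and Cr2 for B cells, Ccr2 and Cd68 for monocytes and macrophages, Mmp9 and Camp for neutrophils, Nkg7 and Eomes for CD8 T and NK cells, and Hba-a1 and Alas2 for erythroid cells and platelets. Ccr2 made up most of the monocyte and macrophage sum, at 61.4, 74.8 and 70.1 CPM in the wild type group and 60.4, 29.9 and 9.34 CPM in the IPMK cKO group. Eomes was 0, 1.91 and 3.85 CPM in the wild type group and 22.5, 11.8 and 15.0 CPM in the IPMK cKO group (log2 fold change 3.08, SE 1.47, edgeR adjusted p = 0.9999). Of the 3 CD8 T and NK cell genes tested, 2 had an estimate above 0 and 1 below. The 10 dendritic cell genes summed to 13.1, 60.7 and 34.4 CPM in the wild type group and 81.5, 17.0 and 21.0 CPM in the IPMK cKO group. They were led by Cd74 and H2-Ab1, with 6 of the 10 detected and Itgax, Flt3 and Clec9a at 0. The 2 libraries highest for this list, wild type replicate 2 and IPMK cKO replicate 1, were also the highest for Fosb and Klf4, and the part of such cells in those levels was not tested.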

How the data were processed

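Each deposited file lists raw counts, in whole numbers, by gene symbol, per the file headers. RNA of flow-sorted Treg was extracted with Trizol and made into libraries with a Lexogen QuantSeq kit, per the labels' protocols. The tools Bowtie2 and edgeR, with mm10 and hg19 as builds, appear in the submitters' processing notes with no role stated. The sources used here do not state the annotation, strand setting or filters, and overlapping and antisense genes cannot be separated. Groups follow the genotype label, with 3 libraries each.

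The test was that of edgeR 4.0.16 under R 4.3.3 (TMM, filterByExpr with a minimum of 10 counts, glmQLFit and glmQLFTest, Benjamini-Hochberg over 10475 genes, threshold 0.05). CPM use TMM-scaled sizes. Log2 levels for correlations had a prior count of 2. The SE is the estimate over the square root of F. Alternatives were DESeq2 1.42.0, limma-voom (limma 3.58.1), robust fitting, other scalings and filters, removal of Rn45s, the replicate block and leaving out libraries. The procedure was run on simulated counts, where the criteria to pass were set at a lower dispersion than that of these data. Its power in these libraries is not shown by that run. Depth was 5287300 to 7130660 counts outside Rn45s per library, and precision is set by the spread between libraries.

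The members, lists and tests were chosen with earlier results of these data known, so no list test was run. Named were the 9 members, Ipmk, up to 4 genes of each pathway list by smallest p, the 2 most abundant markers of each other cell type and the 6 genes most like the members' mean; Foxp3, Cd4, Trac, Prdx2, Rn45s, and the markers and bZIP genes without counts, with Atf2, Bach2 and Creb1, were named after their values were seen. A few genes that this rule selects are not reported here. Coordinates are from GENCODE M21 on mm10 (1-based), promoters from RefSeq on GRCm38.p6. The transcript with the longest 3′ end after the coding sequence was used for each gene. Same-numbered libraries of the groups were not treated as pairs, since the labels give no animal or day for a number. Their deviations correlated at under 0.1, which cannot show whether the numbers pair the samples.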

Additional observations from a re-analysis of the deposited data

How the results depend on the processing

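Of the 9 genes, 0 were called in any of 149 alternative estimates, and adjusted p-values lay between 0.776 and 1. Junb (−1.36 to −0.50) and Klf4 (0.12 to 2.90) kept their sign in every alternative; the other 7 genes changed sign in 29 estimates, and for these the cause was not tested. Without 1 library at a time, the estimates ran from −1.62 to 0.79 for Fos, −1.01 to 7.50 for Fosb (the highest where both remaining wild type libraries had no count, so it is no bound), −0.90 to 1.47 for Fosl2, −0.32 to 0.42 for Jun, −0.15 to 0.97 for Jund, −0.10 to 0.29 for Klf6 and −0.23 to 0.46 for Ier2. Without both libraries numbered 1, an alternative chosen after the data were seen, they were −1.60 for Fosb, −0.18 for Jun, −0.26 for Jund and −0.12 for Ier2. With library size alone, which put the median of all genes at −0.17, the estimates were −0.26 for Jun, −0.0569 for Klf6 and −0.14 for Ier2. Jun was −0.051 with upper quartile factors, −0.00807 with a filter of 10 CPM in 3 libraries, which left 5 of the 9 genes, and −0.30 with limma-voom. The median of the 9 genes lay between −0.18 and 0.46, within the spread between libraries. Genes called lower over all genes were 3 by DESeq2, 0 to 1 without 1 library and 1 without both libraries numbered 1. The 9 genes with groups apart were 0 to 2 higher without 1 library (2 if wild type replicate 2 was left out, 1 if it was IPMK cKO replicate 3) and 2 lower without both libraries numbered 1. Over all genes, 9.39%, 10.9% and 17.4% were apart in these settings and directions, against 4.74% higher and 5.66% lower with all libraries.

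With the replicate block, Jun was −0.20 and no gene was called. The deviations of same-numbered libraries correlated at 0.05, 0.09 and 0.03, and those of differently numbered libraries at −0.061 to −0.0011. Each library thus correlated best with its own number, which is a hint from the data. Values this small cannot show whether the numbers pair the samples. The FOS genes and Klf4 had 0 to 168 counts per library, where counting error adds to the spread between libraries.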
